A study of Mus musculus with 47 samples.

Results

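The collagen chain genes are the protein-coding mouse genes that each encode 1 alpha chain of a collagen, and they were taken here by their symbols (Col, a type number, the letter a and a chain number). The rule found 44 genes among 45650 gene symbols, built from 207 of 109617 transcripts. By the usual classes, 11 encode fibrillar chains, 8 encode chains of the basement membrane (types IV, XV and XVIII) and 25 encode other chains. The rule reads symbols and no measured value, although the set was chosen with earlier results of these data known.

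Polyadenylated RNA was sequenced from C2C12 cells, a mouse skeletal myoblast line that withdraws from the cell cycle and fuses into myotubes when serum is removed. Every line also carried its endogenous MyoD1, the transcription factor that drives muscle differentiation, and 1 transgene behind a doxycycline (dox) responsive TRE3GS promoter, which was Halo-MyoD1 in the iMyoD1 line, Cdh23 (cadherin-23) in the iCdh23 line and Mcam (a cell adhesion molecule of the immunoglobulin family) in the iMcam line. The transgenes were inserted with a PiggyBac vector and puromycin selection. The authors describe the iMyoD1 line as polyclonal, and whether the iCdh23 and iMcam lines are is not stated. The 47 libraries formed 16 groups of 3 biological replicates, except for the dox-treated myoblast-enriched fraction, which had 2.

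For iMyoD1, libraries with and without dox were made at 0 h (24 h of treatment in growth medium, with no differentiation) and after 24, 48 and 120 h of serum starvation. At 120 h there was also a pair of fractions from a 40 µm filter, the retained myotube-enriched fraction and the myoblast-enriched flow-through, beside the whole culture. The iCdh23 and iMcam lines were sampled at 48 h only. Treated cultures received 1 µg/mL dox from the start of serum starvation, and controls received vehicle. No line without a transgene was analysed with dox, so an effect of the drug itself and of the transgene cannot be told apart. The comparisons ask how the collagen genes move during differentiation and with dox in each line.

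Collagens are the main structural proteins of the extracellular matrix. Every collagen is a trimer of alpha chains wound into a triple helix, which needs glycine at regular steps along the chain. Fibrillar collagens (types I, III, V, XI and their relatives) form the load-bearing fibrils of the tissue between muscle fibres, type IV forms the sheet-like network of the basement membrane that wraps each fibre, and type VI forms beaded filaments that link both layers. FACIT collagens sit on the surface of fibrils, transmembrane collagens are held in the cell membrane, and the short-chain type VIII forms hexagonal lattices. In muscle, most of this matrix is made by fibroblasts, while myoblasts in culture also make it.

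The feature that the chains share can be read in the coding sequence. The stretch of Col1a1 from codon 168 to codon 197 is printed to show the repeat, with each glycine codon (GGN) in capitals:
Col1a1: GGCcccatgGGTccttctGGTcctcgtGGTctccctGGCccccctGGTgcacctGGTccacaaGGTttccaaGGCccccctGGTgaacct

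Read in steps of 3 codons, the longest unbroken run of such units had a median of 338 units in the 11 fibrillar genes (range 216 to 344). It was far shorter in the other classes, with a median of 41 units (30 to 66) in the basement membrane genes, 57 in the FACIT genes, 45 in the beaded-filament genes, 60.5 in the network and anchoring genes and 43.5 in the transmembrane genes, whose helices are interrupted. The fibrillar genes were thus set apart from all other members by sequence alone.

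The 250 bases before the start of 5 members are given next because the results turn on these genes, and because E-boxes (CANNTG, in capitals below) are the kind of site that MyoD1 and related factors bind. The sequences are RefSeq's, on GRCm38.p6, written 5′ to 3′ on the strand of the gene. Col3a1 (chr1:45311288-45311537, plus strand) had the highest mean TPM over all groups. Col8a1 (chr16:57754738-57754987, minus strand) and Col8a2 (chr4:126286544-126286793, plus strand) encode both chains of type VIII and moved in opposite directions with dox at 48 h. Col11a2 (chr17:34038888-34039137, plus strand) was higher with dox in several comparisons, and Col15a1 (chr4:47207762-47208011, plus strand) had the largest fold change with dox of all members.
Col3a1: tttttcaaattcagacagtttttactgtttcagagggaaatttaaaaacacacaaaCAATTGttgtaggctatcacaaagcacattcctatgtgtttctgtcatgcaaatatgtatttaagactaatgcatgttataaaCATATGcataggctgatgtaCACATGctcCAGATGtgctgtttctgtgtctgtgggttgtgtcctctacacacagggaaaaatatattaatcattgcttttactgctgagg
Col8a1: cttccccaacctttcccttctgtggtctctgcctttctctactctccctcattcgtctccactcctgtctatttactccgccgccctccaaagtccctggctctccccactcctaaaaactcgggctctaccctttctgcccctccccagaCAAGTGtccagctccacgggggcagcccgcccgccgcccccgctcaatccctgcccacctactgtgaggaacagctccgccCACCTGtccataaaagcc
Col8a2: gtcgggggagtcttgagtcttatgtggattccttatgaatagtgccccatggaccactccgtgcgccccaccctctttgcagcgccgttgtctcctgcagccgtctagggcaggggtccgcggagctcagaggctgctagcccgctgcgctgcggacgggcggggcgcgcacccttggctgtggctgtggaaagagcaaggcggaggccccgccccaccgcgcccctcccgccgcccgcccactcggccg
Col11a2: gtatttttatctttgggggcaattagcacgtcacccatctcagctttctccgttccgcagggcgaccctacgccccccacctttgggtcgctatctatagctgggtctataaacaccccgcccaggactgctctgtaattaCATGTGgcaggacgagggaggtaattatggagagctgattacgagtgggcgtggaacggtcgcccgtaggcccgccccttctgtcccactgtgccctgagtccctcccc
Col15a1: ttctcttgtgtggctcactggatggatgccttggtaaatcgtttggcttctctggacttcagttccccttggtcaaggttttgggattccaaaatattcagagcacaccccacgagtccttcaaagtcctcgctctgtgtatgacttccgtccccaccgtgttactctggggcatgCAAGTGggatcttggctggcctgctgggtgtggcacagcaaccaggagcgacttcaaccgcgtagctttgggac

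RefSeq windows of 300 bases (250 before and 50 after the start) matched 35 of the 44 members. Of these windows, 20.0% held CAGCTG, the form of the E-box most often given for MyoD1, against 16.4% of all 32544 mouse promoters, and 54.3% held CANNTG in any form, against 72.3%. Both strands were searched, and CAGCTG is itself one form of CANNTG. The GC box GGGCGG stood in 62.9% against 35.9% of all promoters, the CCAAT box in 34.3% against 37.4%, TATAAA in 14.3% against 13.6%, and the AP-1 site TGANTCA in 2.9% against 7.8%. The members' windows had a median GC content of 59.8%, against 53.0% for all promoters. Among the sequences shown, that of Col8a2 held no E-box, whereas Col8a1, Col3a1, Col11a2 and Col15a1 each held at least 1. These matches describe the letters in the windows only.

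Several members lie side by side in the genome (GENCODE vM21, GRCm38). Col4a1 (chr8:11198423-11312826, minus strand) and Col4a2 (chr8:11312805-11449287, plus strand) start head to head and overlap at their first exons. Col4a4 and Col4a3 on chromosome 1, and Col4a6 and Col4a5 on chromosome X, also start head to head, without overlap. Col3a1 (chr1:45311538-45349706) and Col5a2 (chr1:45374321-45503282) are neighbours on opposite strands, and Col6a1 (chr10:76708792-76726168) and Col6a2 (chr10:76595762-76623630) lie close to each other on the minus strand of chromosome 10. Col1a1 (chr11:94936224-94953042) and Col1a2 (chr6:4504814-4541544), which encode both chains of type I, lie on different chromosomes. Whether the counting used strand is not given in the sources used here. Reads in the small overlap of Col4a1 and Col4a2 thus cannot be assigned to 1 of the 2 genes. Reads from antisense genes that overlap a member cannot be told apart from the member's own either. Members with such an overlap include Col5a1, Col5a3, Col4a5, Col4a6, Col12a1, Col14a1, Col15a1, Col18a1 and Col22a1.

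Estimated counts per library ranged from 15066362 to 50950707, with a median of 22837955. The libraries labelled as dox-treated are called "with dox" below, since the level of Myod1 did not check the label. Mean Myod1 in iMyoD1 was 188 CPM (depth-scaled counts, by edgeR) with dox and 178 without at 0 h, 117 and 135 at 24 h, 306 and 388 at 48 h, and 92.0 with and 280.0 without in whole culture at 120 h, and whether the reference held the Halo-MyoD1 transgene is not given in the sources used here. In iMcam, Mcam stood at 71.3 CPM with dox and 18.1 without, whereas Cdh23 in iCdh23 was high in both groups, at 426 to 568 CPM with dox and 348 to 451 without. At 120 h, the libraries of the myotube-enriched fraction did not group by treatment. By correlation over 12578 genes, none (0) of the 6 had its nearest library in its own group, against 6 of 6 whole-culture libraries and 4 of 5 of the myoblast-enriched fraction, although 3 of the 6 had it in the same fraction under the other treatment. In summed myotube markers, 5 of the 6 lay above every library of the myoblast-enriched fraction. Results on the myotube-enriched fraction are given with and without single libraries. The 0 and 24 h libraries, the whole cultures at 48 and 120 h, and the iCdh23, iMcam and fraction libraries were deposited in 3 separate tables with no batch label. Dox and vehicle libraries of a comparison always came from 1 table, but a change from 24 to 48 h and a difference between tables cannot be told apart, and levels set side by side across tables carry the same limit.

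The label of C2C12 myoblasts forming myotubes was checked with marker lists. The summed level of 10 myotube markers (among them Myh3, Acta1 and Ckm) without dox was 1.49 to 2.55 CPM at 0 h, 13.9 to 15.3 CPM at 24 h, 14425 to 15885 CPM at 48 h and 18142 to 21454 CPM at 120 h. Myh8 and Actn2 were at the floor of 3 counts at 0 and 24 h. The summed markers of fat, endothelium and blood never passed 18.7, 0.929 and 4.04 CPM, with Hbb-bs at the floor. Those of cartilage never passed 103 CPM, with Matn1 and Cnmd at the floor, and those of tendon 344 CPM. Those of fibroblasts reached 811 CPM and those of bone 1936 CPM, the latter mainly through Spp1 (osteopontin). Of the bone list, Ibsp was at the floor in every group, and Bglap, Alpl and Sp7 were in several. Of the fibroblast list, Thy1 and Lum were at the floor in several groups. In bulk samples, fewer cells of a type and less RNA per cell cannot be told apart.

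Averaged over the groups, Col3a1 was the most abundant member. Compared per length, as TPM (counts scaled by transcript length and then by depth, computed here) averaged over the 16 groups, Col3a1, the single chain of type III, reached 1996 TPM and made up 41.34% of all collagen. Col6a1, a chain of type VI, followed with 635 TPM (13.15%), then Col1a2 with 505 TPM (10.46%), Col6a2 with 358 TPM (7.42%), Col5a2, a chain of the type V that starts fibrils, with 255 TPM (5.28%), and Col6a3 with 220 TPM (4.55%). Col5a1 (180 TPM), Col1a1 (128 TPM), the FACIT gene Col12a1 (127 TPM) and the type IV genes Col4a1 (99.8 TPM) and Col4a2 (66.1 TPM) came next. Col3a1 was not first in every group, since Col1a2 stood above it at 0 h, at 878 against 672 TPM without and 596 against 462 TPM with dox, and Col6a1 in iCdh23 with dox, at 671 against 349 TPM. Group means of Col1a1 ran from 1.66 to 324 TPM. At the other end, 25 members stayed above 3 counts in at least 1 library of every group, whereas 2 (Col6a6 and Col9a1) stayed at or under 3 counts in every library. Col19a1, Col4a3, Col6a6, Col9a1 and Col9a2 were too low to be tested in any comparison, and the other 39 were tested at least once.

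The summed collagen message differed widely between groups. Without dox in iMyoD1, it stood at 3167 ± 59.9 TPM (SD, n = 3) at 0 h, 1164 ± 60.4 TPM at 24 h, 6606 ± 95.7 TPM at 48 h and 5478 ± 748 TPM at 120 h. With dox it stood lower at each time, at 2599 ± 84.3, 849 ± 9.59, 4020 ± 464 and 3974 ± 107 TPM. The libraries of the 2 treatments did not overlap at any of these times, and these sums were not tested. In iCdh23 the sum was 6544 ± 493 TPM without and 1886 ± 201 TPM with dox, and in iMcam 9154 ± 1123 and 4974 ± 277 TPM. As a share of all counts, the lowest group mean was 0.257% (24 h with dox) and the highest 2.56%, in the myoblast-enriched fraction without dox.

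**Figure D1:**
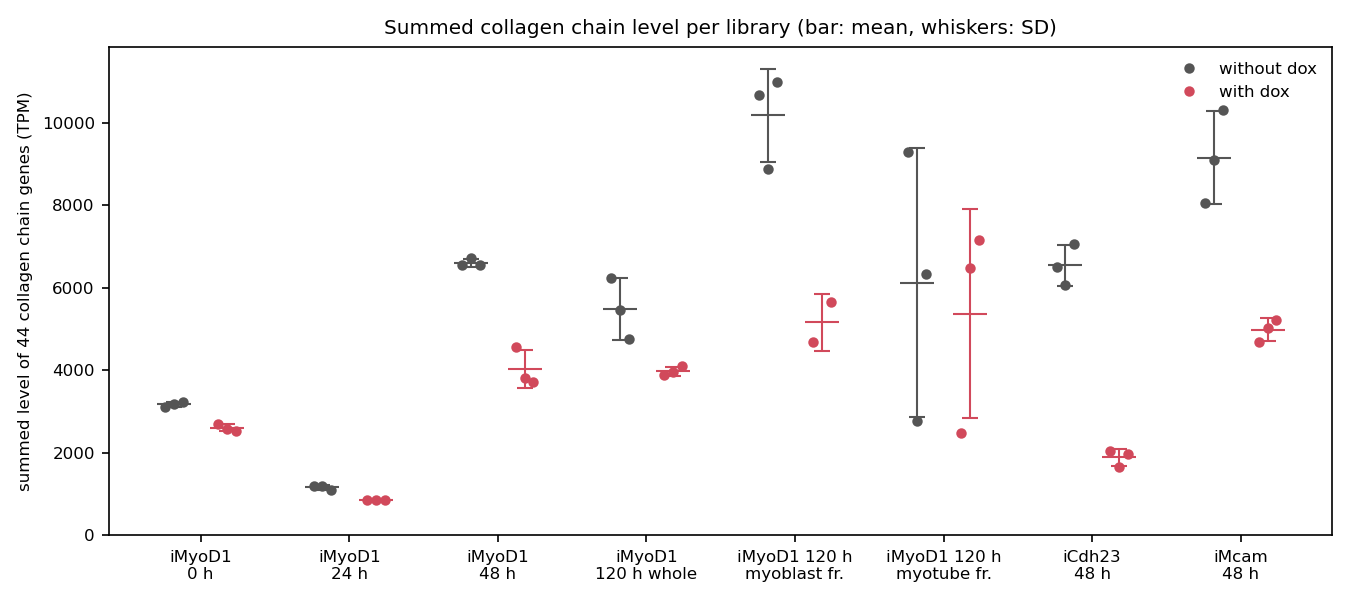
Summed level of the 44 collagen genes (TPM, vertical axis) in each library of the 16 groups, as points, with the group mean as a bar and the SD as whiskers. The mean with dox lies under the mean without dox in every pair of groups, and the libraries of the myotube-enriched fraction spread the most.

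The first comparisons follow the cells without dox through differentiation. In all that follows, changes within a gene are log2 fold changes of TMM-scaled counts from edgeR's quasi-likelihood test with Benjamini-Hochberg adjustment over all genes tested, and a gene is counted as changed over 2-fold where its adjusted p was under 0.05 and its fold change above 2. During the first 24 h of serum starvation, 21 of 26 tested members fell over 2-fold and 2 rose, with 16.7% of all tested genes falling and 9.49% rising. The members' median log2 change was -1.95, against 0.01 for all genes. By class, 8 of 10 fibrillar, 3 of 5 basement membrane and 10 of 11 other genes fell. The count of risers rests on single libraries, since without replicate 1 of the 24 h group it was 1.

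Type I showed how unequal the fall was. Col1a1 stood at 190, 207 and 194 CPM at 0 h and at 5.401, 7.77 and 5.54 CPM at 24 h (log2 fold change -4.94 ± 0.11 SE, adjusted p = 1.79e-13). Its partner Col1a2 stood at 2371, 2491 and 2436 CPM and then at 817, 842 and 804 CPM (log2 fold change -1.53 ± 0.058 SE, adjusted p = 2.37e-11). Both chains fell without overlap of the libraries, and Col1a1 fell much further. Col3a1, by contrast, was at 1631, 1608 and 1719 CPM and 1564, 1471 and 1547 CPM, which did not pass the test (log2 fold change -0.08 ± 0.058 SE, adjusted p = 0.231).

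Col5a2 fell as well, from 1164, 1120 and 1201 CPM to 461, 434 and 441 CPM (log2 fold change -1.35 ± 0.057 SE, adjusted p = 7.8e-11), and Col6a2 from 369, 366 and 344 CPM to 112, 129 and 114 CPM (log2 fold change -1.57 ± 0.067 SE, adjusted p = 7.92e-11), each without overlap. The basement membrane pair fell together, Col4a1 from 153, 151 and 156 to 15.6, 16.6 and 14.6 CPM (log2 fold change -3.26 ± 0.066 SE, adjusted p = 1.09e-13) and Col4a2 by 2.98 on the log2 scale. Col16a1, a FACIT gene, went from 50.7, 55.2 and 58.9 to 3.29, 2.66 and 3.29 CPM, a 17.4-fold fall. For Col6a1 the values were 790, 799 and 803 CPM at 0 h and 183, 199 and 201 CPM at 24 h (log2 fold change -2.0 ± 0.061 SE, adjusted p = 3.31e-12). The few risers were low. Col11a2, a chain of the fibrillar type XI, rose from 1.32, 1.200 and 2.15 CPM to 3.41, 3.09 and 2.98 CPM (log2 fold change 1.05), and Col4a4, a type IV chain, was at least 5.93-fold higher than the floor of 3 counts per library at 0 h.

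Between 24 and 48 h, the direction turned. Of 29 tested members, 24 rose over 2-fold and 2 fell, with 19.3% of all tested genes rising and 11.1% falling, and the members' median log2 change was 3.07 against -0.02 for all genes. This comparison spans 2 of the deposited tables. All 12 tested other genes rose, with 8 of 11 fibrillar and 4 of 6 basement membrane genes. Col1a1 reached 936, 1042 and 983 CPM at 48 h, 158-fold above 24 h (log2 fold change 7.31). Col3a1 reached 7919, 7943 and 7331 CPM (log2 fold change 2.34 ± 0.067 SE, adjusted p = 1.88e-12), and Col4a1 reached 685, 721 and 638 CPM, a 43.8-fold rise. Col27a1, a fibrillar chain known from cartilage, went from 0.325, 0.461 and 0.485 CPM to 27.3, 25.98 and 28.7 CPM, and Col15a1, a basement membrane chain, rose by 5.70 on the log2 scale. The fibrillar Col2a1 (-1.97) and Col4a4 (-2.09) were the 2 that fell. From 0 to 24 to 48 h without dox, summed fibroblast markers had medians of 107, 27.4 and 200 CPM, those of proliferating myoblasts of 2620, 903 and 3175 CPM, bone markers of 1599, 403 and 1304 CPM and tendon markers of 139, 73.1 and 285 CPM, and their part in the fall and the rise was not tested.

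From 48 to 120 h, the members divided. Of 32 tested, 6 rose over 2-fold (11.7% of all genes) and 5 fell (18.1% of all genes), and their median log2 change was -0.04, against -0.03 for all genes. Col25a1, a transmembrane collagen that muscle uses to attract motor axons, had the largest rise, from 0.238, 0.911 and 0.134 CPM to 26.5, 16.1 and 21.7 CPM (log2 fold change 5.68 ± 0.43 SE, adjusted p = 5.22e-06), and all 3 libraries at 120 h lay above all 3 at 48 h. The other risers were Col11a1, Col15a1, Col20a1, Col22a1 (known from the muscle-tendon junction) and the transmembrane Col23a1, from 1.604, 1.13 and 1.61 CPM to 8.67, 6.97 and 6.81 CPM (log2 fold change 2.38). The 5 that fell were Col16a1, Col18a1 (whose cleaved end is endostatin), Col6a2, Col27a1 (-2.03) and Col17a1, a hemidesmosome collagen that went from 4.52, 3.21 and 2.54 to 0.394, 0.407 and 0.714 CPM. Summed fibroblast markers were 199 to 213 CPM at 48 h and 103 to 116 CPM at 120 h, and tendon markers 284 to 290 and 25.0 to 38.0 CPM (Tnmd at the floor). Cartilage markers were 63.7 to 67.0 and then 23.4 to 29.1 CPM, those of proliferating myoblasts 3105 to 3330 and 1458 to 2517 CPM, and those of bone, higher at 120 h, 1290 to 1331 and 1633 to 1936 CPM. Their part in these changes was not tested.

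**Figure D2:**
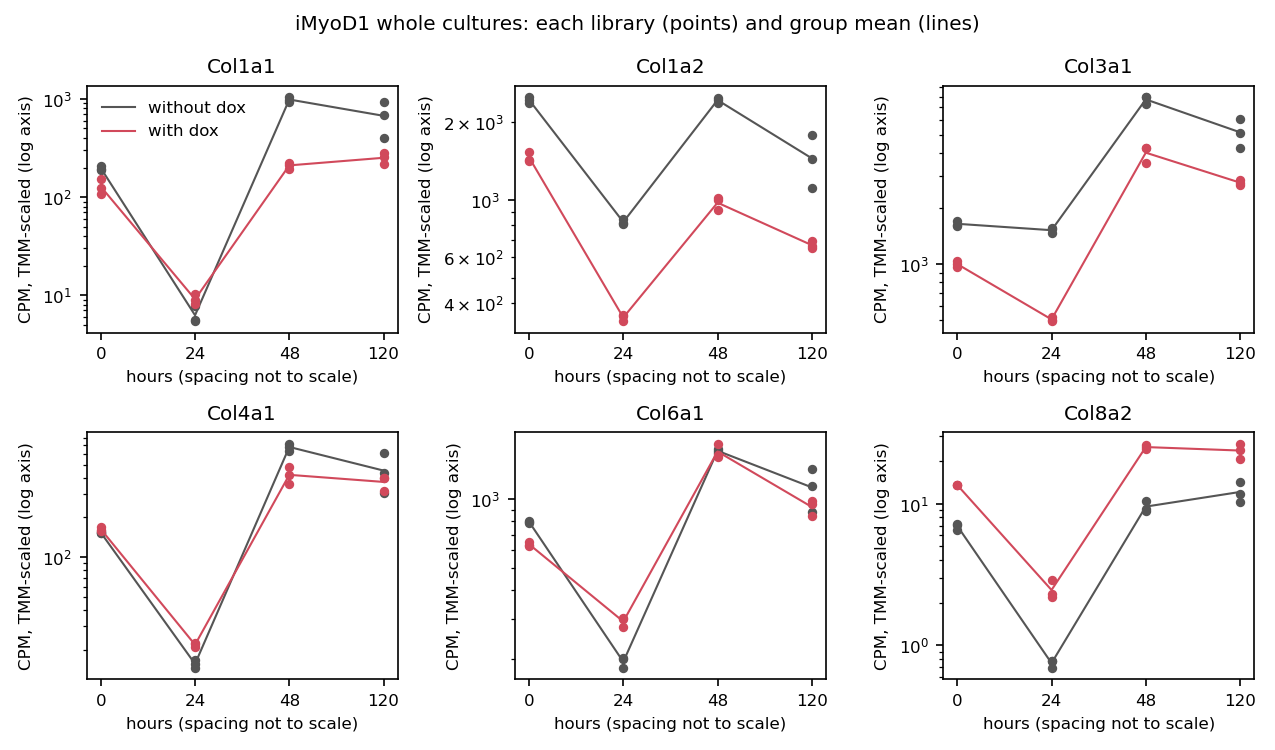
Level of 6 collagen genes (CPM, log axis) in iMyoD1 whole cultures at 0, 24, 48 and 120 h (spacing not to scale), with points for libraries and lines for group means, without and with dox. Col1a1 and Col4a1 drop at 24 h and rise again by 48 h, and Col3a1 lies at a like level at 0 and 24 h without dox and lower with dox at each time.

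The next comparisons set dox against vehicle at each time in iMyoD1. At 0 h, in growth medium, no member (0 of 26) changed over 2-fold in either direction, against 2.91% of all genes rising and 1.36% falling. Under the test alone, 18 members had an unadjusted p under 0.05, and 16 passed after adjustment at any size, as 16 did with DESeq2. Of these, 6 were higher (19.1% of all genes) and 10 lower (18.7% of all genes). Without replicate 1 of the dox group, or without replicate 3 of the vehicle group, 1 member rose over 2-fold. The members' median log2 change was -0.16, against 0 for all genes. Summed bone markers were 1594 to 1603 CPM without and 446 to 492 CPM with dox (Ibsp and Alpl at the floor), fibroblast markers 106 to 116 and 55.8 to 64.7 CPM (Lum and Thy1 at the floor) and tendon markers 137 to 139 and 96.2 to 104 CPM (Thbs4 at the floor). Cartilage markers were 24.3 to 24.8 and 17.8 to 21.0 CPM, those of proliferating myoblasts 2616 to 2647 and 2502 to 2570 CPM, and those of myotubes, higher with dox, 1.49 to 2.55 and 4.6 to 5.54 CPM. Their part in these changes was not tested.

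At this time Col1a2 had the lowest adjusted p of all members, with a fall from 2371, 2491 and 2436 CPM to 1527, 1431 and 1418 CPM (log2 fold change -0.73 ± 0.052 SE, adjusted p = 2e-07). Col3a1 fell from 1631, 1608 and 1719 CPM to 962, 1004 and 1043 CPM (log2 fold change -0.71 ± 0.053 SE, adjusted p = 3.31e-07). Col1a1 was lower as well, at 151, 124 and 108 CPM against 190, 207 and 194 CPM (log2 fold change -0.61 ± 0.091 SE, adjusted p = 0.000135). In each of the 3 genes every library with dox lay under every library without. Col8a2 moved the other way and stood at 13.7, 13.6 and 13.5 CPM with dox and 7.23, 6.55 and 7.14 CPM without (log2 fold change 0.97 ± 0.11 SE, adjusted p = 9.56e-06), again without overlap. The type XI chain Col11a2 was higher as well (log2 fold change 0.87 ± 0.30 SE, adjusted p = 0.0316), a call that was lost without replicate 2 of the dox group or without replicate 1 or 2 of the vehicle group. In 1 fit of all 16 groups, which share 1 estimate of the spread, none of the calls on Col1a1, Col1a2, Col3a1, Col8a2 and Col11a2 at 0 h was kept.

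At 24 h, 3 of 28 tested members rose over 2-fold (8.03% of all genes) and 3 fell (5.14% of all genes). The members' median log2 change was 0.46, against 0 for all genes, while Col3a1 was among those that fell. It stood at 1564, 1471 and 1547 CPM without and 521, 502 and 493 CPM with dox (log2 fold change -1.62 ± 0.058 SE, adjusted p = 8.53e-10). Col1a2 stood at 817, 842 and 804 CPM and 339, 357 and 358 CPM (log2 fold change -1.25 ± 0.057 SE, adjusted p = 4.93e-09). Both had no overlap between groups, and Col15a1 fell too, at a level under 1 CPM (log2 fold change -2.62 ± 0.49 SE, adjusted p = 0.000576).

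The 3 members that rose over 2-fold at 24 h were all scarce. Col8a2 went from 0.772, 0.7802 and 0.693 CPM to 2.896, 2.29 and 2.18 CPM (log2 fold change 1.68 ± 0.23 SE, adjusted p = 4.02e-05). Col16a1 rose from 3.29, 2.66 and 3.29 CPM to 7.93, 7.81 and 6.89 CPM (log2 fold change 1.26 ± 0.13 SE, adjusted p = 3.93e-06), and Col27a1 by 1.22 on the log2 scale. Their libraries did not overlap between groups. Smaller rises passed the test in 12 members, among them Col5a3 (log2 fold change 0.88) and Col6a3 (0.79). Others were those of Col6a1, from 183, 199 and 201 CPM to 275, 300 and 301 CPM (log2 fold change 0.56 ± 0.062 SE, adjusted p = 8.28e-06), of Col1a1, from 5.401, 7.77 and 5.54 CPM to 8.096, 10.2 and 8.99 CPM (log2 fold change 0.51 ± 0.15 SE, adjusted p = 0.00977), and of Col4a1, from 15.6, 16.6 and 14.6 CPM to 22.4, 21.1 and 21.9 CPM (log2 fold change 0.46 ± 0.077 SE, adjusted p = 0.000248). Col1a1 and Col4a1 did not pass in 1 fit of all 16 groups. The 2 type I chains thus moved in opposite directions at 24 h, Col1a1 by the smaller amount. Summed myotube markers were alike at this time, at 13.9 to 15.3 CPM without and 13.8 to 15.1 CPM with dox, while fibroblast markers (6 genes, with Lum and Thy1 at the floor) were at 22.7 to 29.7 and 14.7 to 16.4 CPM. Bone markers summed to 389 to 447 CPM without and 103 to 111 CPM with dox (Ibsp and Alpl at the floor), tendon markers to 72.3 to 82.9 and 45.4 to 47.5 CPM (Thbs4 at the floor), cartilage markers to medians of 13.4 and 9.7 CPM and those of proliferating myoblasts to 886 to 932 and 978 to 995 CPM. None of these 4 sums overlapped between the groups, and their part in the collagen changes was not tested.

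At 48 h the falls were broad. Of 28 tested members, 12 fell over 2-fold (8.46% of all genes) and 3 rose (5.93% of all genes), with a median log2 change of -0.89 against 0.01 for all genes. By class, 5 of 10 fibrillar genes (median -1.03), 2 of 6 basement membrane genes (-0.70) and 5 of 12 other genes (-0.33) fell. Col1a1 went from 936, 1042 and 983 CPM to 225, 212 and 194 CPM (log2 fold change -2.25 ± 0.078 SE, adjusted p = 1.76e-08), the largest fall among the type I and III chains. Col1a2 went from 2429, 2484 and 2371 CPM to 1013, 1000 and 912 CPM (log2 fold change -1.33 ± 0.073 SE, adjusted p = 1.63e-07). Col3a1, at 7919, 7943 and 7331 CPM and 4216, 4235 and 3528 CPM (log2 fold change -0.97 ± 0.091 SE, adjusted p = 7.19e-06), fell 1.96-fold and so just missed the 2-fold limit. The groups did not overlap in any of these 3 genes.

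Of the type V chains at 48 h, Col5a1 fell less than 2-fold, from 1060, 1126 and 1065 CPM to 638, 567 and 549 CPM (log2 fold change -0.91 ± 0.077 SE, adjusted p = 3.31e-06). Col5a2 fell from 1089, 1174 and 1082 CPM to 580, 537 and 475 CPM (log2 fold change -1.09 ± 0.082 SE, adjusted p = 1.48e-06) and the scarcer Col5a3 by 1.76 on the log2 scale. Type VI was uneven. Col6a1 stood at 1656, 1603 and 1636 CPM without and 1753, 1535 and 1571 CPM with dox, with overlapping libraries and no difference past the test (log2 fold change -0.03 ± 0.078 SE, adjusted p = 0.799). Its partner Col6a2 fell by 0.43 and Col6a3 by 1.20 on the log2 scale, both past the test, Col6a2 from 1135, 1096 and 1081 CPM to 884, 797 and 795 CPM. The basement membrane chain Col4a1 fell from 685, 721 and 638 CPM to 477, 422 and 360 CPM (log2 fold change -0.71 ± 0.097 SE, adjusted p = 0.000107), and Col4a2 fell by 0.69, both less than 2-fold.

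Type VIII split at 48 h. Col8a1 fell 4.91-fold, from 169, 207 and 176 CPM to 39.3, 38.8 and 35.5 CPM (log2 fold change -2.29 ± 0.086 SE, adjusted p = 2.4e-08), whereas Col8a2 rose from 8.91, 10.5 and 9.24 CPM to 25.9, 24.5 and 25.2 CPM (log2 fold change 1.38 ± 0.093 SE, adjusted p = 6.23e-07). In both, all 3 libraries of a group lay on one side of the other group. The other 2 risers were Col11a2, from 3.68, 3.16 and 2.68 CPM to 11.9, 10.99 and 10.2 CPM (log2 fold change 1.79 ± 0.14 SE, adjusted p = 1.95e-06), and Col23a1, from 1.604, 1.13 and 1.61 CPM to 6.04, 6.595 and 4.52 CPM (log2 fold change 1.97 ± 0.21 SE, adjusted p = 2.02e-05). Falls over 2-fold were also seen for Col11a1, the FACIT genes Col12a1 and Col14a1, Col15a1 (-1.74), Col17a1 and Col18a1.

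Other cell-type markers moved with dox at 48 h as well. The summed myotube markers (10 of 10 above the floor) were 14425 to 15885 CPM without and 5928 to 6094 CPM with dox, and the 8 markers of proliferating myoblasts 3105 to 3330 and 1956 to 2070 CPM. The 6 fibroblast markers summed to 199 to 213 CPM without dox, with Thy1 at the floor, and to 120 to 138 CPM with dox. The 6 bone markers summed to 1290 to 1331 and 450 to 496 CPM, with Ibsp and Alpl at the floor in both groups. Tendon markers summed to 284 to 290 and 167 to 211 CPM, and cartilage markers to 63.7 to 67.0 and 44.5 to 46.1 CPM, with Acan, Matn1 and Cnmd at the floor. Their part in the collagen changes was not tested.

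At 120 h in whole cultures, 8 of 29 tested members fell over 2-fold (8.8% of all genes) and 2 rose (7.32% of all genes), with a median log2 change of -0.47 against 0 for all genes. Of the fibrillar genes, 4 of 10 fell (median -0.90). Col1a1 stood at 937, 686 and 396 CPM without and 219, 253 and 282 CPM with dox (log2 fold change -1.43 ± 0.26 SE, adjusted p = 0.00177), and Col1a2 at 1787, 1444 and 1110 CPM and 652, 662 and 692 CPM (log2 fold change -1.13 ± 0.15 SE, adjusted p = 0.000342). Col3a1 fell from 6088, 5099 and 4236 CPM to 2674, 2737 and 2850 CPM (log2 fold change -0.91 ± 0.13 SE, adjusted p = 0.000401), again by less than 2-fold. The libraries without dox spread widely but all lay above those with dox in these 3 genes.

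The largest changes with dox at 120 h were in less abundant members. Col25a1 went from 26.5, 16.1 and 21.7 CPM to 1.82, 1.01 and 0.888 CPM (log2 fold change -4.11 ± 0.30 SE, adjusted p = 9.07e-06), and Col18a1 from 266, 196 and 119 CPM to 31.03, 43.9 and 37.3 CPM (log2 fold change -2.39 ± 0.26 SE, adjusted p = 0.000104), each without overlap. Upward, Col7a1, which forms anchoring fibrils, went from 4.19, 1.86 and 2.19 CPM to 7.67, 12.4 and 10.5 CPM (log2 fold change 1.88 ± 0.33 SE, adjusted p = 0.00145), and Col4a5, a type IV chain, from 19.9, 19.5 and 12.6 CPM to 38.9, 42.7 and 43.6 CPM (log2 fold change 1.26 ± 0.17 SE, adjusted p = 0.000408). Col8a1 no longer differed past the test (log2 fold change -0.06 ± 0.083 SE, adjusted p = 0.581), at 295, 287 and 273 CPM against 292, 256 and 279 CPM, while Col8a2 was still higher with dox (log2 fold change 0.96 ± 0.16 SE, adjusted p = 0.00127). Col4a1 was at 617, 430 and 308 CPM and 318, 397 and 398 CPM, with overlapping libraries (log2 fold change -0.30 ± 0.21 SE, adjusted p = 0.287), and passed, at a log2 fold change of -0.52, without replicate 3 of the vehicle group. Summed myotube markers were 18142 to 21454 CPM without and 12747 to 14802 CPM with dox, fibroblast markers 103 to 116 and 71.8 to 74.6 CPM, bone markers 1633 to 1936 and 322 to 368 CPM, tendon markers 25.0 to 38.0 and 10.5 to 16.3 CPM and cartilage markers 23.4 to 29.1 and 13.3 to 14.1 CPM, and their part was not tested.

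**Figure D3:**
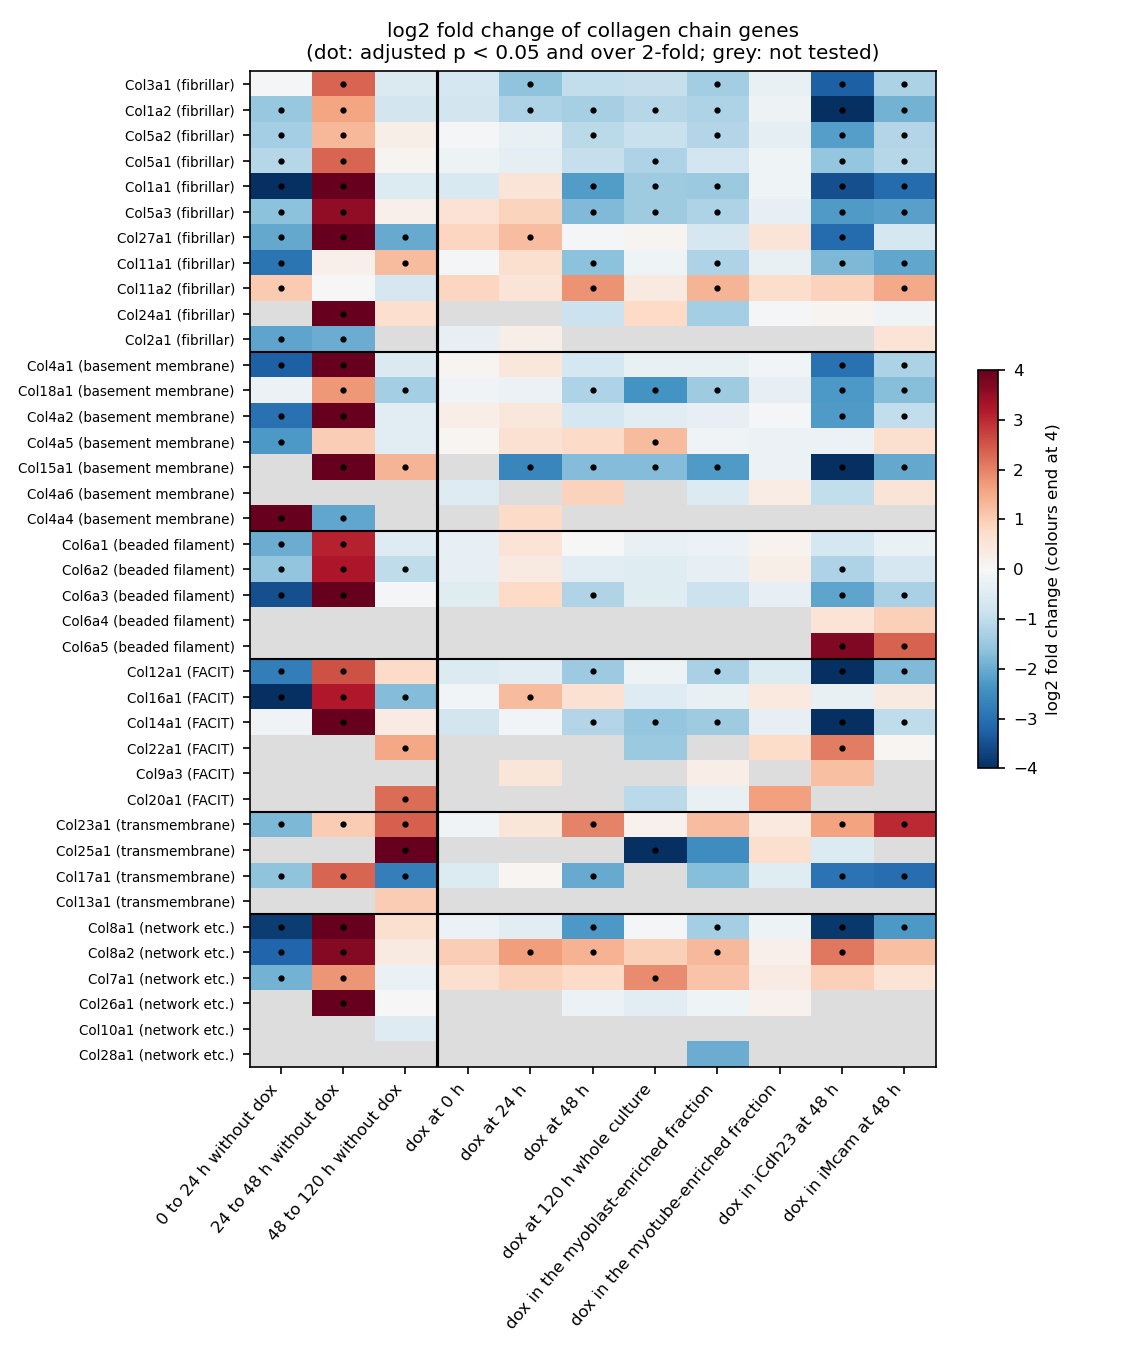
Log2 fold change of each of the 39 tested collagen genes (rows, by class) in 11 comparisons (columns), as colour that ends at 4 in either direction, with dots where the adjusted p was under 0.05 and the change over 2-fold and grey where a gene was not tested. Most fibrillar genes are lower with dox from 48 h on, and Col8a2 and Col11a2 are higher, though without a dot in some columns. Most genes fall from 0 to 24 h and rise from 24 to 48 h.

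Whether the dox effect changed with time was tested as a difference between the effects at neighbouring times. From 0 to 24 h it differed in 15 of 28 members (34.1% of all genes), 10 with a higher and 5 with a lower effect at 24 h. In 1 fit of all 16 groups, 1 member differed. In the fit of the compared groups, the effect on Col1a1 turned from a fall to a rise (difference 1.07 ± 0.19 SE, adjusted p = 0.000266), as did that on Col6a1 (0.83 ± 0.079 SE, adjusted p = 5.18e-07), Col6a2 and Col6a3. For Col3a1 the fall deepened (difference -0.96 ± 0.074 SE, adjusted p = 4.93e-08), and for Col1a2 as well (-0.57 ± 0.073 SE, adjusted p = 1.32e-05). From 24 to 48 h the effect differed in 21 of 31 members (43.4% of all genes), lower at 48 h in 18 and higher in 3, a step that spans 2 tables, and in 1 fit of all 16 groups 10 differed. Of the genes whose effect changed sign, Col1a1 had the largest difference, from a rise to a fall (difference -2.75 ± 0.16 SE, adjusted p = 2.83e-09).

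From 48 to 120 h the dox effect differed in 13 of 33 members (34.1% of all genes), 7 with a higher and 6 with a lower effect at 120 h, and in 1 fit of all 16 groups 5 differed. Without replicate 2 or without replicate 3 of the 48 h vehicle group, this count was 8. Col8a1 was among them, its fall at 48 h no longer seen past the test at 120 h (difference 2.24 ± 0.12 SE, adjusted p = 3.09e-08). The effect on Col12a1 also moved up by 1.25 on the log2 scale, whereas those on Col18a1 (difference -1.16) and Col23a1 (-1.80) moved down.

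Partner chains of types I and VIII changed in ratio between groups. The type I ratio Col1a1 to Col1a2, per length in TPM and given as a description, was 0.0726 ± 0.00159 (SD, n = 3) at 0 h without dox, 0.00676 ± 0.00129 at 24 h, 0.364 ± 0.0166 at 48 h and 0.408 ± 0.0777 at 120 h, a span of 60.4-fold. With dox it was higher at 24 h (0.025 ± 0.0014) and lower at 48 h (0.193 ± 0.00458) than without. For the type VIII pair, Col8a1 to Col8a2 was 14.9 ± 1.48 without and 6.31 ± 0.573 with dox at 0 h, 9.73 ± 1.72 and 2.23 ± 0.332 at 24 h, and 16.3 ± 0.32 and 1.28 ± 0.0747 at 48 h. Over all 16 groups this ratio ran from 0.273 in iCdh23 with dox to 27.3 in the myoblast-enriched fraction without dox. The head-to-head pair Col4a1 to Col4a2 stayed within a span of 1.75-fold, from 0.937 to 1.64, with its lowest value also in iCdh23 with dox.

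Of the other type IV genes, Col4a5 averaged 15.4 TPM over the groups, and Col4a6, Col4a4 and Col4a3 averaged 0.454, 0.075 and 0.028 TPM. Col4a5 stood at 24.00, 23.4 and 22.99 CPM without and 45.7, 41.4 and 32.8 CPM with dox at 48 h in iMyoD1 (log2 fold change 0.76 ± 0.11 SE, adjusted p = 0.000167), and at 11.8, 12.8 and 10.9 CPM and 18.6, 18.1 and 18.02 CPM at 24 h (log2 fold change 0.60 ± 0.086 SE, adjusted p = 7.23e-05). It was thus higher with dox at the times when Col4a1 was higher (24 h) and when Col4a1 was lower (48 h). Its neighbour Col4a6 was at 0.416, 0.268 and 0.223 CPM without and 0.553, 0.605 and 0.541 CPM with dox at 48 h (log2 fold change 0.92 ± 0.38 SE, adjusted p = 0.063), and in iMcam it was at 6.92, 7.32 and 3.25 CPM and 9.402, 7.85 and 6.999 CPM (log2 fold change 0.51 ± 0.30 SE, adjusted p = 0.194). Neither difference passed the test. Col4a4 reached its highest level at 24 h, at 0.731, 1.03 and 1.18 CPM without and 1.97, 1.67 and 1.57 CPM with dox (log2 fold change 0.78 ± 0.25 SE, adjusted p = 0.0153), whereas its neighbour Col4a3 stayed under 1 CPM in every library.

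In the iCdh23 line, most of the tested members were lower with dox. At 48 h, 18 of 32 tested members fell over 2-fold (17% of all genes) and 4 rose (13% of all genes), with a median log2 change of -1.66 against 0 for all genes. Of the fibrillar genes 8 of 10 fell (median -2.24), of the basement membrane genes 4 of 6 (-2.28) and of the other genes 6 of 16 (-0.43). Col3a1 went from 5747, 6101 and 6403 CPM to 679, 573 and 656 CPM (log2 fold change -3.26 ± 0.12 SE, adjusted p = 4.88e-06), a 9.57-fold fall. Col1a2 went from 1932, 1747 and 2380 CPM to 129, 97.8 and 126 CPM (log2 fold change -4.10 ± 0.19 SE, adjusted p = 6.34e-06), and Col1a1 from 385, 248.6 and 779 CPM to 52.9, 31.6 and 39.1 CPM (log2 fold change -3.52 ± 0.44 SE, adjusted p = 0.000332). Col5a2 followed, from 1052, 1103 and 1321 CPM to 246, 246 and 270 CPM (log2 fold change -2.19 ± 0.12 SE, adjusted p = 9.98e-06). All libraries with dox lay far under those without, and Col1a1 also spread widely among the vehicle libraries, with replicate 3 the highest.

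The type IV pair fell too, Col4a1 from 507, 500 and 591 CPM to 77.6, 54.5 and 67.1 CPM (log2 fold change -3.0 ± 0.16 SE, adjusted p = 9.26e-06) and Col4a2 by 2.26 on the log2 scale. Of the 6 chains with the highest mean TPM, Col6a1 had the smallest fall, with 1707, 1767 and 1561 CPM and 1020, 978 and 1072 CPM (log2 fold change -0.71 ± 0.098 SE, adjusted p = 0.000496), while Col6a2 was lower by 1.23 and Col6a3 by 2.11 on the log2 scale. The largest folds were in Col15a1, from 6.87, 13.1 and 34.3 CPM to 0.167, 0.0993 and 0.214 CPM (log2 fold change -6.79 ± 0.79 SE, adjusted p = 0.000232), Col14a1, from 28.3, 38.1 and 79.2 CPM to 0.626, 0.397 and 0.713 CPM (log2 fold change -6.39 ± 0.51 SE, adjusted p = 3.74e-05), and Col12a1, from 803, 680 and 840 CPM to 33.1, 6.65 and 13.9 CPM (log2 fold change -5.44). Col14a1 and Col12a1 both encode FACIT chains that bind fibrils, and in all 3 genes the groups were well apart.

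Type VIII split in iCdh23 as well. Col8a1 fell from 83.3, 89.5 and 186 CPM to 8.76, 7.28 and 8.56 CPM (log2 fold change -3.87 ± 0.34 SE, adjusted p = 5.95e-05), and Col8a2 rose from 4.47, 2.96 and 10.3 CPM to 25.99, 26.8 and 24.1 CPM (log2 fold change 2.11 ± 0.40 SE, adjusted p = 0.0024). Col23a1 rose from 1.77, 2.19 and 1.39 CPM to 5.46, 5.39 and 5.39 CPM (log2 fold change 1.60 ± 0.21 SE, adjusted p = 0.000382), Col22a1 from 1.24, 0.534 and 0.304 CPM to 3.504, 3.21 and 2.07 CPM (log2 fold change 2.06), and Col6a5, a scarce type VI chain, was at least 9.35-fold higher than the floor. Without replicate 3 of the vehicle group, or without replicate 2 of the dox group, 7 members rose over 2-fold. Summed myotube markers were 5872 to 10597 CPM without and 42.0 to 144 CPM with dox, those of proliferating myoblasts 2150 to 2678 and 306 to 375 CPM, of fibroblasts 271 to 356 and 19.8 to 26.3 CPM (Thy1 at the floor in both groups, Lum with dox), of bone 1172 to 1187 and 61.5 to 89.8 CPM (Bglap and Ibsp at the floor), of tendon 149 to 174 and 26.1 to 29.2 CPM (Tnmd at the floor) and of cartilage, as medians, 48.8 and 27.7 CPM, and their part in the collagen changes was not tested.

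In the iMcam line, 16 of 31 tested members fell over 2-fold (9.85% of all genes) and 3 rose (6.99% of all genes), with a median log2 change of -1.0 against 0.02 for all genes. The falls covered 7 of 11 fibrillar genes (median -1.18), 4 of 6 basement membrane genes (-1.14) and 5 of 14 other genes (-0.10). Col3a1 went from 7182, 8513 and 9588 CPM to 3004, 3440 and 3806 CPM (log2 fold change -1.27 ± 0.15 SE, adjusted p = 0.000655), Col1a2 from 2277, 2258 and 3262 CPM to 724, 667 and 661 CPM (log2 fold change -1.89 ± 0.16 SE, adjusted p = 0.000239) and Col1a1 from 436, 358 and 1053 CPM to 71.3, 73.7 and 68.7 CPM (log2 fold change -3.07 ± 0.39 SE, adjusted p = 0.000899). The groups did not overlap, and replicate 3 without dox was again the highest in Col1a1. Col4a1 fell from 542, 572 and 672 CPM to 238, 219 and 259 CPM (log2 fold change -1.28 ± 0.11 SE, adjusted p = 0.000261). For Col6a1 the values were 1908, 2390 and 2125 CPM and 1509, 1778 and 1913 CPM (log2 fold change -0.27 ± 0.13 SE, adjusted p = 0.132), a difference that passed with the replicate number as a block (log2 fold change -0.27). The labels do not say whether libraries of the same replicate number were paired. In this line such libraries correlated at 0.214, 0.116 and 0.27 in their departure from the group mean. Col5a2 fell from 1116, 1153 and 1683 CPM to 575, 527 and 601 CPM (log2 fold change -1.18 ± 0.17 SE, adjusted p = 0.00131).

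Upward in iMcam, Col23a1 went from 2.45, 3.22 and 1.99 CPM to 16.9, 24.4 and 17.4 CPM (log2 fold change 2.98 ± 0.23 SE, adjusted p = 0.000194), Col11a2 from 3.698, 4.298 and 2.57 CPM to 7.15, 11.3 and 11.2 CPM (log2 fold change 1.53 ± 0.26 SE, adjusted p = 0.0027), and Col6a5 from 0.895, 0.4701 and 0.158 CPM to 1.91, 2.96 and 2.76 CPM (log2 fold change 2.37). Col8a2 stood at 10.1, 8.797 and 33.4 CPM without and 40.1, 34.8 and 43.1 CPM with dox, which did not pass the test (log2 fold change 1.20 ± 0.46 SE, adjusted p = 0.0611). It passed with the replicate block (log2 fold change 1.41), with no low-count filter (1.21), in 1 fit of all 16 groups (1.18), and, at 2.08, without replicate 3 of the vehicle group, which lay far above the other 2. Without that library, 5 members rose over 2-fold. Downward, the transmembrane Col17a1 had a large fold, from 4.06, 4.16 and 4.304 CPM to 0.294, 0.561 and 0.599 CPM (log2 fold change -3.05 ± 0.29 SE, adjusted p = 0.000319). Summed myotube markers were 4324 to 10735 CPM without and 563 to 1802 CPM with dox, those of proliferating myoblasts 1780 to 2603 and 481 to 791 CPM, of fibroblasts 218 to 393 and 159 to 182 CPM (Thy1 at the floor), of bone 1068 to 1245 and 241 to 283 CPM and of tendon 140.0 to 167 and 62.5 to 68.3 CPM, and their part was not tested.

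The difference between lines was tested directly at 48 h. The iMyoD1 libraries of this comparison came from another table than those of iCdh23 and iMcam. The dox effect in iCdh23 differed from that in iMyoD1 in 21 of 34 members (35.7% of all genes), lower in iCdh23 in all 21, and in 1 fit of all 16 groups 11 differed. For Col3a1 the difference was -2.27 ± 0.14 SE, adjusted p = 2.67e-07, for Col1a2 -2.75 ± 0.18 SE, adjusted p = 4.03e-07 and for Col4a1 -2.27 ± 0.19 SE, adjusted p = 2.23e-06. It was deepest in Col14a1 (-5.20) and Col15a1 (-5.03). Between iMcam and iMyoD1, 2 of 33 members differed (6.41% of all genes), Col27a1 (-0.64 ± 0.17 SE, adjusted p = 0.0401) and Col4a1 (-0.57 ± 0.16 SE, adjusted p = 0.0499), and neither passed in a fit with the replicate block or in 1 fit of all 16 groups. Between iCdh23 and iMcam, 11 of 34 members differed (10.6% of all genes), all lower in iCdh23, with Col3a1 at -1.97 ± 0.19 SE, adjusted p = 0.000216 and Col1a2 at -2.20 ± 0.25 SE, adjusted p = 0.000429, and with the replicate block 17 differed.

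**Figure D4:**
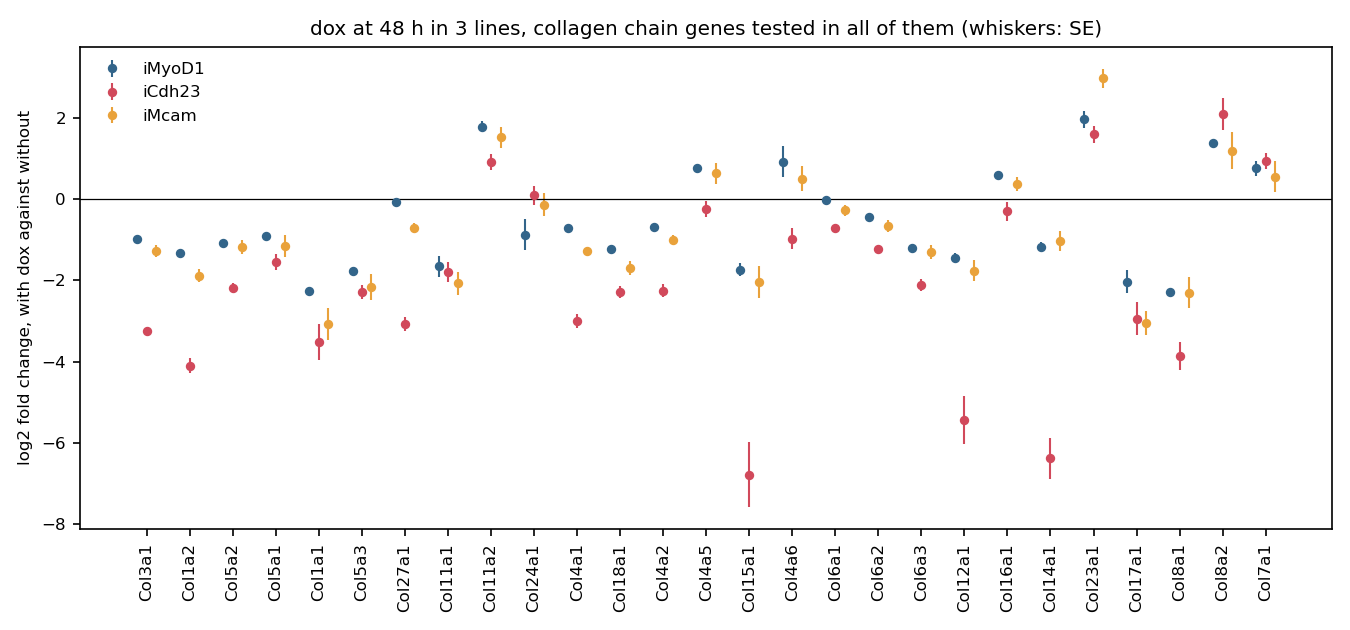
Log2 fold change with dox at 48 h (± SE, vertical axis) in iMyoD1, iCdh23 and iMcam for the 27 collagen genes tested in all 3 lines. For most fibrillar and basement membrane genes the iCdh23 point is the lowest of the 3, and Col15a1, Col14a1 and Col12a1 lie furthest below 0 in that line.

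The filtered fractions at 120 h were compared last. In the myoblast-enriched fraction, 11 of 32 tested members fell over 2-fold with dox (1.82% of all genes) and 2 rose (1.21% of all genes), with a median log2 change of -0.82 against -0.01 for all genes. Of the fibrillar genes 6 of 10 fell (median -1.23), of the basement membrane genes 2 of 6 and of the other genes 3 of 16. Col3a1 stood at 12830, 13380 and 13730 CPM without dox and at 4534 and 5483 CPM in the 2 libraries with dox (log2 fold change -1.40 ± 0.19 SE, adjusted p = 0.0192). Col1a1 stood at 1128, 829 and 1405 CPM and 402 and 402 CPM (log2 fold change -1.47 ± 0.24 SE, adjusted p = 0.0244), and Col15a1 at 86.7, 89.9 and 99.3 CPM and 14.7 and 23.4 CPM (log2 fold change -2.26 ± 0.21 SE, adjusted p = 0.0102). The groups did not overlap in any of these, and each of the 3 calls was lost without replicate 3 of the vehicle group and without replicate 2 of the dox group, with the direction kept. The 2 risers were Col8a2, from 7.92, 6.59 and 12.5 CPM to 24.6 and 19.5 CPM, and Col11a2, from 3.28, 2.18 and 2.96 CPM to 5.92 and 8.41 CPM. The count of falls rests on few libraries, since it was 0 without replicate 3 of the vehicle group or replicate 2 of the dox group and 1 without replicate 3 of the dox group. Neither rise was kept without replicate 3 of the vehicle group, without replicate 2 or 3 of the dox group, or with protein-coding transcripts alone. With 1 dox library left, the fit takes the spread from the vehicle group alone, so that the lone library is assumed to vary like it. Summed fibroblast markers were 526 to 811 CPM without and 266 to 279 CPM with dox, bone markers 1566 to 1744 and 675 to 802 CPM and myotube markers 6746 to 10865 and 5998 to 6063 CPM, and their part was not tested.

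In the myotube-enriched fraction, no member (0 of 31) changed with dox, nor did any other gene (0% of all genes in either direction). By edgeR, 1 member and 79 genes in all had an unadjusted p under 0.05, and DESeq2 called 0 members and 1 gene in all. Col3a1 stood at 13400, 3296 and 8925 CPM without and 3481, 9533 and 7565 CPM with dox, Col1a1 at 1434, 119 and 951 CPM and 361, 1406 and 404 CPM, and Col6a1 at 2310, 1104 and 1614 CPM and 1338, 1371 and 2697 CPM. The libraries of each group spread widely and overlapped in all 3 genes. The summed myotube markers spread likewise, over 15672, 18215 and 25178 CPM without dox and 18452, 24602 and 6067 CPM with dox, where replicate 3 was at the level of the myoblast-enriched libraries (5998 to 10865 CPM). Leaving out any single library left the count at 0.

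Between the fractions without dox, no member (0 of 31) changed over 2-fold, against 0.57% of all genes higher and 0.0143% lower in the myotube-enriched fraction. At an unadjusted p under 0.05 there were 3 members and 2251 genes in all, and DESeq2 called 1 member and 773 genes. Without replicate 1 of the myotube-enriched fraction, 1 member was higher there. With dox, 0 of 31 members changed (0% of all genes in either direction), with 2 members and 182 genes in all at an unadjusted p under 0.05 and 0 of either by DESeq2. The dox effect did not differ past the test between the fractions in any of 35 members (0% of all genes), with 0 members and 217 genes at an unadjusted p under 0.05 and 0 members and 2 genes by DESeq2.

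**Figure D5:**
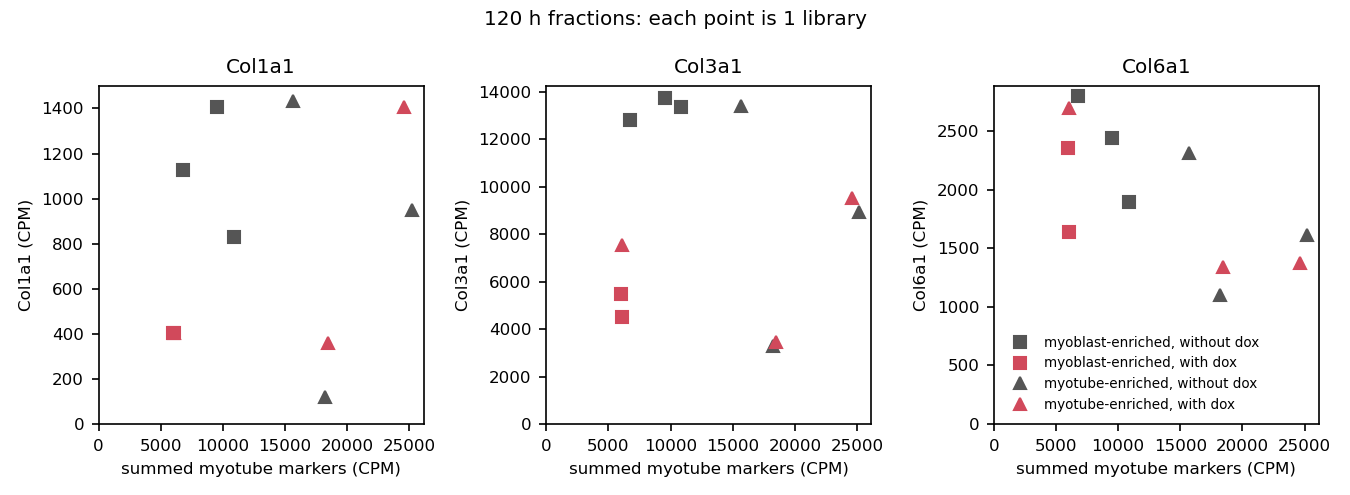
Level of Col1a1, Col3a1 and Col6a1 (CPM, vertical axis) against the summed level of 10 myotube markers (CPM, horizontal axis) in each of the 11 libraries of the 2 fractions at 120 h, with and without dox. Of the 6 myotube-enriched libraries, 5 lie at 15672 to 25178 CPM of the markers, above every myoblast-enriched library (5998 to 10865 CPM), and replicate 3 with dox lies at 6067 CPM.

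Collagen chains need enzymes and chaperones to become a fibre. Of 40 genes for collagen maturation (15 for hydroxylation and glycosylation, 12 for chaperoning and export, 8 for propeptide cleavage and 5 for crosslinking), 5 of 37 tested fell over 2-fold (5.14% of all genes) and 1 rose (8.03%) with dox at 24 h. At 48 h 4 fell (8.46% of all genes) and 0 rose, and at 120 h 3 fell (8.8%) and 0 rose. In iCdh23, 11 of 38 fell (17% of all genes) and 0 rose, and in iMcam 3 of 38 fell (9.85%) and 0 rose. Without dox, 11 of 37 fell (16.7% of all genes) and 2 rose (9.49%) from 0 to 24 h. Between 24 and 48 h, 11 were higher (19.3% of all genes) and 1 lower (11.1%), and between 48 and 120 h 1 was higher (11.7%) and 7 lower (18.1%), each over 2-fold. Lox, the oxidase that crosslinks collagen, fell with dox from 1633 to 727 CPM at 0 h (log2 fold change -1.16 ± 0.052 SE, adjusted p = 2.62e-09), from 123 to 29.9 CPM at 24 h (log2 fold change -2.07 ± 0.060 SE, adjusted p = 1.85e-10) and from 496 to 24.6 CPM in iCdh23 (log2 fold change -4.33 ± 0.31 SE, adjusted p = 2.32e-05), as means of 3 libraries.

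Other maturation genes moved with dox at some times. Serpinh1, the collagen chaperone HSP47, fell from 2574 to 951 CPM at 24 h (log2 fold change -1.46 ± 0.061 SE, adjusted p = 2.57e-09) and from 961 to 307 CPM at 120 h (log2 fold change -1.66), although it rose by 1.28 on the log2 scale during the first 24 h without dox, when most chains fell. Pcolce2, an enhancer of propeptide cleavage, fell by 1.54 on the log2 scale at 48 h and by 3.31 in iCdh23. P4ha3, a subunit of the prolyl hydroxylase that stabilises the helix, rose by 1.42 at 24 h.

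Among 10 collagen receptors, of which 7 were tested, the counts with dox were as follows. At 24 h, 2 rose (8.03% of all genes) and 0 fell. At 48 h, 1 rose (5.93% of all genes) and 1 fell (8.46%), and at 120 h 1 rose (7.32%) and 1 fell (8.8%). In iCdh23 2 fell (17% of all genes), in iMcam 1 (9.85%) and in the myoblast-enriched fraction 1 (1.82%), with 0 rising in each. At 0 h and in the myotube-enriched fraction 0 changed over 2-fold. Without dox, 4 receptors were down over the first 24 h (16.7% of all genes) and 0 up. Between 24 and 48 h, 3 receptors were up (19.3% of all genes) and 2 down (11.1%), and between 48 and 120 h 2 were up (11.7%) and 1 down (18.1%). Itga11, the integrin subunit that binds fibrillar collagen, fell by 1.46 on the log2 scale at 48 h, by 2.98 in iCdh23 and by 1.98 in iMcam. Itga10, its relative, rose at 48 h (log2 fold change 1.04) and at 120 h (1.30) but fell by 3.01 in iCdh23. Mrc2, which takes up collagen for breakdown, rose by 1.23 at 24 h, and Ddr2, a receptor kinase for fibrillar collagen, fell by 1.39 at 120 h.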

How the data were processed

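PolyA RNA of 47 C2C12 libraries was sequenced by the authors and quantified with Salmon against mm10 through nf-core/rnaseq. The deposited values are estimated counts per transcript in 3 tables. The annotation release and strandedness are not given in the sources used here. Here, transcripts were summed per gene by GENCODE vM21 (98.77% of gene IDs named) and rounded to whole numbers. The members and gene lists were chosen with earlier results of these data known. Genes kept by filterByExpr were tested with edgeR 4.0.16 (R 4.3.3), TMM scaling and a quasi-likelihood test over the groups compared, with Benjamini-Hochberg adjustment over all genes. Calls needed an adjusted p under 0.05 and a change over 2-fold, and interactions an adjusted p under 0.05. P-values measure the spread between the replicates as labelled. TPM was computed here per transcript from its count and length and then summed per gene. A count of 3 or less per library was taken as the floor, which covers counting error only.

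Named members were the 5 with the highest mean TPM, the adjacent pairs, and in each comparison the 2 with the largest change each way among those past the test at a mean of 1 CPM or more without overlap, others being chosen after their values were seen. Samples were grouped by their labels. Counts per library ran from 15066362 to 50950707. Replicate pairs differed by more than sampling noise. Of the comparisons with 3 pairs, same-numbered replicates correlated over 0.1 in every pair only in iMcam (0.214, 0.116 and 0.27). Alternatives were DESeq2 1.42.0, RLE scaling, no filter, no fold threshold, protein-coding transcripts, 1 fit of all groups, a replicate block and leaving out single libraries. Code was tested on simulated counts. Promoters came from RefSeq (GRCm38.p6).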

Additional observations from a re-analysis of the deposited data

Results flagged for a closer look

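The effect of dox on single collagen genes differed between conditions by tests of the difference itself (edgeR, Benjamini-Hochberg adjusted p under 0.05 over all genes). It differed in 15 of 28 members between 24 and 0 h (34.1% of all genes), in 21 of 31 between 48 and 24 h (43.4%), in 13 of 33 between 120 and 48 h (34.1%), in 21 of 34 between iCdh23 and iMyoD1 (35.7%), in 2 of 33 between iMcam and iMyoD1 (6.41%) and in 11 of 34 between iCdh23 and iMcam (10.6%). The shares for 120 and 48 h and for iMcam and iMyoD1 lie near those of all genes. In 1 fit of all 16 groups these counts were 1, 10, 5, 11, 0 and 9. Comparisons at neighbouring times share the groups of the middle time, and the 48 and 24 h libraries, and those of iMyoD1 and the other lines, come from separate tables.

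In 4 genes a fall at 0 h, a rise at 24 h and their difference each passed the test, with a log2 difference of 1.07 in Col1a1, 0.83 in Col6a1, 0.65 in Col6a2 and 1.23 in Col6a3. Only 1 member's difference between these times passed in 1 fit of all 16 groups, where the calls on Col1a1 at 0 h and at 24 h were also lost. In 7 genes a rise at 24 h, a fall at 48 h and their difference each passed the test, with a difference of -2.28 in Col11a1, -2.75 in Col1a1, -1.17 in Col4a1, -1.14 in Col4a2, -2.64 in Col5a3, -0.80 in Col6a2 and -1.99 in Col6a3. The cause was not tested.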

How the results depend on the processing

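Of 89 results on single genes, 996 values under alternatives kept direction and call, 51 lost the call, 9 gained it and 1 reversed, namely Col6a1 with dox at 48 h, never called, at log2 changes of -0.08 to 0.02 with single libraries left out (0.02 without replicate 2 of the dox group). Of the counts, 406 values stayed within 1.5 times and 54 moved, and the cause was not tested unless the setting itself shows it. With no fold threshold, members with dox were 6 up and 10 down of 26 at 0 h (19.1 and 18.7% of all genes), 15 up and 8 down of 28 at 24 h (31.1 and 31.7%), 6 of 28 up at 48 h (27.9%) and 4 of 29 up at 120 h (21.4%), and 10 of 32 fell from 48 to 120 h (34.1%). With no low-count filter, 1 rose at 0 h, 4 in the myoblast-enriched fraction and 1 between fractions without dox. In 1 fit of all 16 groups, 1 rose at 0 h, 7 in iCdh23, 5 in iMcam and 2 between fractions without dox, and interactions numbered 1 (24 and 0 h), 10 (48 and 24 h), 5 (120 and 48 h), 11 (iCdh23 and iMyoD1) and 0 (iMcam and iMyoD1). With protein-coding transcripts, 0 rose in the myoblast-enriched fraction, and iMcam and iMyoD1 differed in 1, as with RLE scaling, against 4 with DESeq2, which also gave 1 riser between fractions without dox. The replicate block gave 1 riser between fractions without dox, 0 differences between iMcam and iMyoD1 and 17 between iCdh23 and iMcam, and moved no other count by over 1.5 times. Leaving out single libraries gave 0 to 1 risers at 0 h, 0 to 1 risers and 0 to 12 falls in the myoblast-enriched fraction, 4 to 7 risers in iCdh23, 3 to 5 in iMcam, 1 to 3 from 0 to 24 h and 0 to 1 between fractions without dox, and interactions of 8 to 16 (120 and 48 h) and 0 to 4 (iMcam and iMyoD1).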

Other observations

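Ratios between chains that the comparisons above do not cover are given as values, per length in TPM and as means ± SD of 3 libraries. Col6a1 to Col6a3, chains of one type VI monomer, was 1.99 ± 0.0573 without and 3.91 ± 0.297 with dox at 48 h in iMyoD1, 2.76 ± 0.266 and 7.85 ± 0.632 in iCdh23, and 2.5 ± 0.403 and 5.45 ± 0.9 in iMcam. Col6a1 to Col6a2 stayed between 1.44 and 2.37 in all 16 groups. Col5a3 to Col5a1, chains of type V, was 0.112 ± 0.0056 without and 0.271 ± 0.0149 with dox at 24 h, but 0.235 ± 0.0189 without and 0.114 ± 0.0125 with dox at 48 h. Col3a1 to Col1a2, chains of different types, ran from 0.765 ± 0.0362 at 0 h without dox to 6.67 ± 2.07 in the myoblast-enriched fraction without dox. None of these ratios was tested.

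Spp1, a secreted phosphoprotein of bone matrix that binds integrins, fell with dox in every whole culture of the 3 lines, by 1.84 on the log2 scale at 0 h, 2.15 at 24 h, 1.54 at 48 h and 2.46 at 120 h in iMyoD1, by 4.61 in iCdh23 and by 2.31 in iMcam.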
